A study of Bos taurus with 24 samples.

Results

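The 7 genes described here encode subunits of the respiratory chain and of ATP synthase that are written in mitochondrial DNA. They are ND1 (ENSBTAG00000043558), ND5 (ENSBTAG00000043563), CYTB (ENSBTAG00000043550), COX1 (ENSBTAG00000043561), COX2 (ENSBTAG00000043556), COX3 (ENSBTAG00000043560) and ATP6 (ENSBTAG00000043584), 7 of the 24616 gene identifiers counted. They were chosen by identifier. The deposited files pair no identifier with a name, so the names rest on the list that defined the set. The RefSeq gene table of the assembly ARS-UCD2.0 matched 0 identifiers, but it lists all 7 symbols among the 13 protein-coding genes of its mitochondrial chromosome.

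The data are RNA sequencing libraries of mammary gland and liver from 12 lactating cows. For 12 weeks before slaughter, 6 cows received a corn stover based diet (corn stover is the stalk and leaf residue of maize) and 6 an alfalfa hay based diet, alfalfa being a legume. Each cow gave 1 library per tissue, which makes 24 libraries in groups of 6: mammary gland on corn stover, mammary gland on alfalfa hay, liver on corn stover and liver on alfalfa hay. Parity was 2 in corn stover cow 1 and alfalfa hay cow 2, and 3 in the other cows. The labels give no breed or age. Tissue identity could not be checked with known marker genes, since no identifier could be given a name.

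Mitochondrial DNA is transcribed from both strands into long precursors that are cut into single messenger, ribosomal and transfer RNAs, so these genes share their transcription and are not independent of each other. ND1 and ND5 are membrane subunits of complex I, which takes electrons from NADH. CYTB is the cytochrome b subunit of complex III. COX1, COX2 and COX3 form the catalytic core of cytochrome c oxidase, complex IV, which passes electrons to oxygen, and ATP6 is part of the proton channel of ATP synthase. All these complexes also hold subunits encoded in the nucleus. Liver and the lactating mammary gland are both tissues with high energy turnover. In the RefSeq table ATP6 overlaps ATP8 and abuts COX3, and ND5 overlaps ND6. The strand setting of the authors' counting is not given in the sources used here, and nuclear copies of mitochondrial DNA occur in mammals, so reads at such places may have been split or lost.

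Library totals ran from 22579051 to 37954234 counts. The lowest count of any of the 7 genes in any library was 4953 and the highest 1105526. Counting error at the lowest count is 1.42%, far below the spread between cows. These are bulk tissue samples, in which fewer cells of a type and less RNA per cell cannot be told apart.

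The 7 genes together took between 1.79% and 6.98% of all reads of a library. Their summed share was 2.18% at the lowest, 2.89% at the median and 5.62% at the highest in mammary gland on corn stover. In mammary gland on alfalfa hay these values were 2.62%, 2.87% and 3.59%. In liver they were 1.96%, 3.74% and 6.23% on corn stover, against 1.79%, 4.03% and 6.98% on alfalfa hay. The range of each group overlapped that of every other group, and the alfalfa hay mammary libraries were the tightest group. The mean was 3.26% ± 1.27 in mammary gland on corn stover and 2.98% ± 0.331 on alfalfa hay, and 3.84% ± 1.55 in liver on corn stover and 4.32% ± 1.94 on alfalfa hay (SD, n = 6 each).

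**Figure D1:**
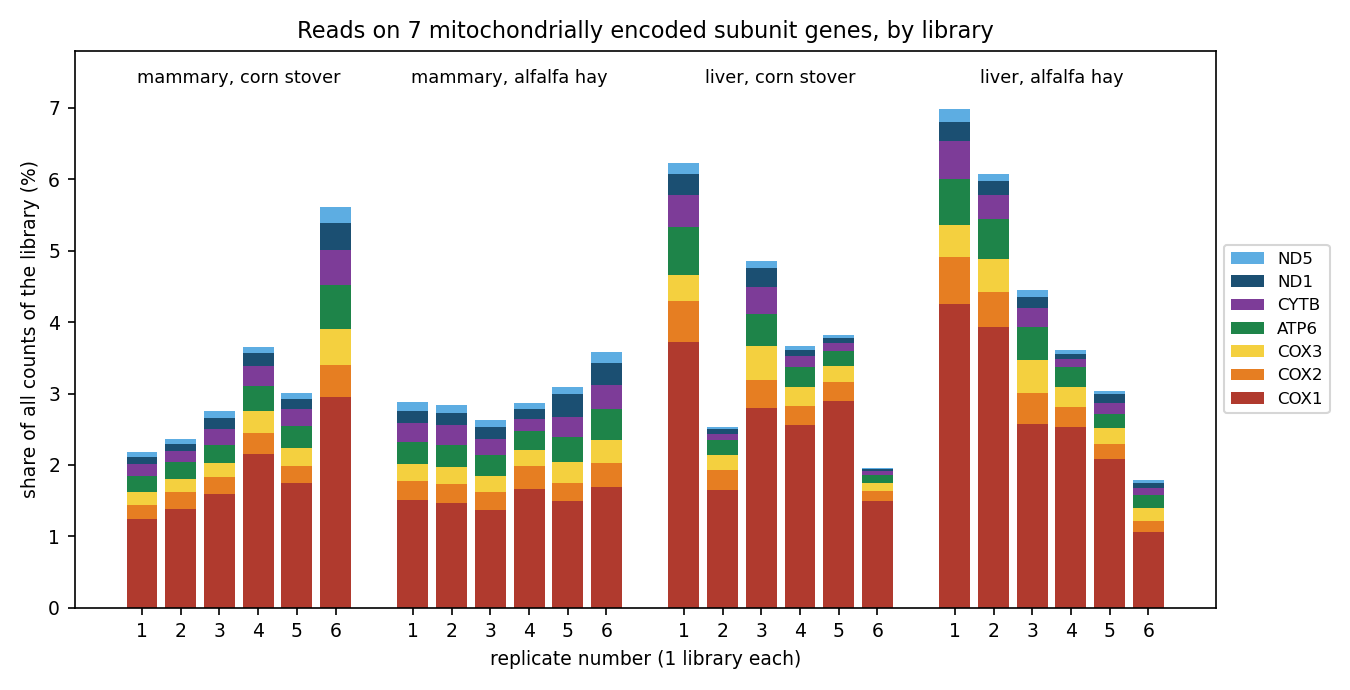
Share of all counts of a library, in percent, on each of the 7 genes, stacked, with 1 bar per library and the replicate number under it. Bars run from 2.18% to 5.62% in mammary gland and from 1.79% to 6.98% in liver, and COX1 is the largest segment in every bar.

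COX1 took most of these reads. Its share was 1.25%, 1.67% and 2.95% of all counts (lowest, median, highest) in mammary gland on corn stover, against 1.37%, 1.504% and 1.69% on alfalfa hay. In liver it was 1.49%, 2.68% and 3.73% on corn stover, against 1.06%, 2.55% and 4.26% on alfalfa hay. By count COX1 ranked 5 to 8 among all genes of a mammary library and 2 to 8 among those of a liver library. ND5 stood at the other end, with 0.068% to 0.231% of counts in mammary gland and 0.018% to 0.176% in liver, where its rank ran from 70 to 638. Shares of reads on different genes are not levels, because a longer transcript gives more reads and gene lengths of the authors' build were not used here.

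The genes differed in how far they varied between livers. The highest liver exceeded the lowest 9.73-fold for CYTB, 9.69-fold for ND5 and 8.83-fold for ND1. The ratio was 6.34 for ATP6, 4.64 for COX2, 4.02 for COX1 and 3.92 for COX3. The same ratio over the 12 mammary libraries lay between 2.36 for COX1 and 3.77 for ND1. Liver corn stover replicate 6 was the lowest liver for 6 of the 7 genes, and alfalfa hay replicate 6 was the lowest for COX1.

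The tissue comparison asked whether the genes were used more in the mammary gland or in the liver of the same cows. As a share of all reads the sum was lower in mammary gland than in liver in 9 of 12 cows, 5 of 6 on corn stover and 4 of 6 on alfalfa hay. COX1 was lower in mammary gland in 10 of 12 cows, whereas ND5 was higher there in 9, ND1 in 8 and CYTB in 7. COX2 and COX3 were higher in mammary gland in 5 cows each and ATP6 in 6.

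This direction depended on what the reads were set against. The 10 most abundant genes outside the set took 63.8% to 79.1% of counts in mammary gland and 24.2% to 32.6% in liver. Against the remaining counts, the summed share averaged 11.9% ± 4.76 in mammary gland on corn stover and 11.6% ± 2.19 on alfalfa hay, and 5.28% ± 2.33 in liver on corn stover and 6.07% ± 2.85 on alfalfa hay (SD, n = 6 each). It was then higher in mammary gland in 10 of 12 cows, and the exceptions were the cows with replicate number 1 on each diet.

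**Figure D2:**
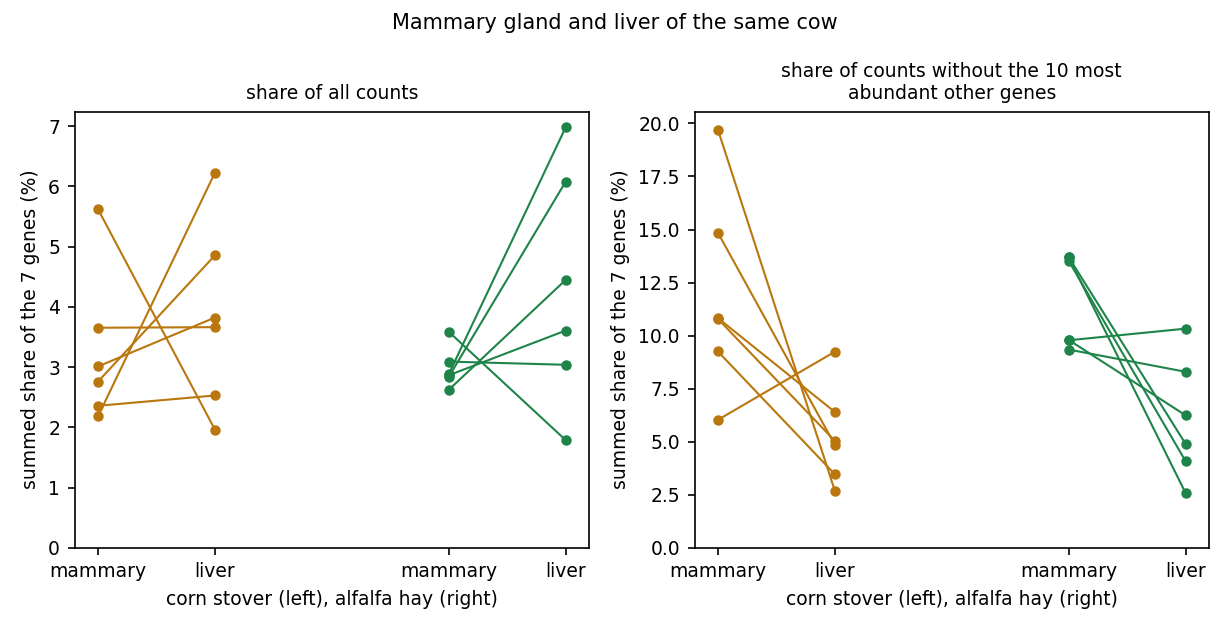
Summed share of the 7 genes in mammary gland and liver of the same cow, joined by a line, on corn stover (left pair) and alfalfa hay (right pair). The left panel sets the reads against all counts of the library, where mammary gland is lower in 9 of 12 cows, and the right panel sets them against counts without the 10 most abundant other genes, where it is higher in 10 of 12.

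Across all genes, TMM factors were applied, which scale libraries by a trimmed mean of log ratios and assume that most genes do not differ. Mammary gland was then tested against liver with the quasi-likelihood test of edgeR. This fit held no term for the cow, so its p-values do not use the pairing of the tissues. After this scaling all 7 fitted changes were positive, and 5 genes passed the threshold of 0.05 on the p-value adjusted by Benjamini-Hochberg over 13760 genes. Of all genes tested, 33.5% were called higher in mammary gland and 34.7% lower, so that 68.2% were called in either direction. Such a share is at odds with the TMM assumption that most genes do not differ. The fold differences given below hold on that scale only. The median log2 change was 0.79 over the 7 genes and -0.02 over all genes tested. Without a scaling factor the median of all genes moved to -0.998, and COX1, COX2, COX3 and ATP6 turned negative, at -0.64, -0.31, -0.21 and -0.11. None of the 5 genes called higher with TMM was called higher on that scale, where ND5 was at 0.57 (edgeR adjusted p = 0.0961), ND1 at 0.45 (edgeR adjusted p = 0.211) and CYTB at 0.19 (edgeR adjusted p = 0.6002). The only one of the 7 genes called there was COX1, lower in mammary gland (edgeR adjusted p = 0.0220), in a fit that called 13.4% of all genes higher and 67.6% lower. Each use of "rose" for the tissues therefore refers to the TMM scale. Measured from the median of all genes, the median change of the 7 genes was 0.81 with TMM and 0.89 without a factor. All 7 stayed positive, from 0.36 for COX1 to 1.57 for ND5 without a factor. Taking off the median acts as a scaling factor and rests on the same assumption as TMM. These values are therefore no separate support for a direction.

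Both complex I genes rose in mammary gland relative to liver on the TMM scale. ND5 stood at 700, 1325 and 3299 normalised CPM (lowest, median, highest) in mammary gland on corn stover and at 1225, 1553 and 2066 on alfalfa hay. In liver it stood at 113, 308 and 1418 on corn stover and at 227, 491 and 1766 on alfalfa hay. Most mammary libraries were thus above most livers, but the ranges overlapped. The log2 change of ND5 was 1.43 ± 0.37 (SE; edgeR adjusted p = 0.00149), a 2.70-fold difference. That of ND1 was 1.35 ± 0.39 (SE; edgeR adjusted p = 0.00336), or 2.54-fold. ND1 averaged 2517 ± 1545 normalised CPM in mammary gland on corn stover and 3096 ± 1328 on alfalfa hay, against 1035 ± 994 and 1163 ± 866 in liver on corn stover and on alfalfa hay (SD, n = 6 each).

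CYTB of complex III also rose, 2.08-fold (log2 change 1.05 ± 0.38, SE; edgeR adjusted p = 0.0165). It averaged 3648 ± 1959 normalised CPM in mammary gland on corn stover and 3695 ± 734 on alfalfa hay, against 1568 ± 1513 and 1993 ± 1702 in liver on corn stover and on alfalfa hay (SD, n = 6 each). Liver varied more than mammary gland on the alfalfa hay diet.

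Among the complex IV genes the result was mixed. COX3 rose (log2 change 0.75 ± 0.28, SE; edgeR adjusted p = 0.0188), while COX2 at 0.61 ± 0.30 (SE; edgeR adjusted p = 0.0789) and COX1 at 0.30 ± 0.32 (SE; edgeR adjusted p = 0.406) did not pass. The 95% interval of the COX1 change ran from -0.35 to 0.96; the fitted difference was 1.24-fold. COX1 stood at 12682, 23052 and 42080 normalised CPM in mammary gland on corn stover and at 17771, 21169 and 31889 on alfalfa hay. In liver it stood at 9221, 17933 and 34925 on corn stover and at 6935, 17293 and 42668 on alfalfa hay, so the tissues overlapped nearly throughout. ATP6, the ATP synthase gene, rose 1.73-fold (log2 change 0.79 ± 0.33, SE; edgeR adjusted p = 0.0392).

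When cows were blocked, which uses that each of them gave both tissues, 4 of the 7 genes passed and COX3 did not (log2 change 0.82; edgeR adjusted p = 0.0602), where 32.5% of all genes were called higher. Leaving out corn stover cow 6 left 2 calls, ND5 at 1.14 (edgeR adjusted p = 0.00594) and ND1 at 1.05 (edgeR adjusted p = 0.0126), and leaving out alfalfa hay cow 5 left 3; these fits called 32.7% and 32.3% of all genes higher. Without both replicate 1 cows all 7 genes passed, where 32.1% of all genes were called higher. Log2 changes ran from 0.68 for COX1 (edgeR adjusted p = 0.0428) to 2.10 for ND5 (edgeR adjusted p = 3.61e-06). The livers of these cows had the highest summed shares of the 7 genes. Larger changes without them are therefore built into the choice and give no separate support. COX2 also passed with DESeq2 (log2 change 0.60; adjusted p = 0.0487), with limma voom (0.78; adjusted p = 0.0137) and in parity 3 cows (0.95; edgeR adjusted p = 0.00945), which made 6 calls of 7 in each, against 33.9%, 33.2% and 32.2% of all genes called higher.

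The division of the reads among the 7 genes needs no scaling between libraries, since each library is set against itself. COX1 took a smaller part of the 7-gene reads in mammary gland than in liver in 12 of 12 cows, with a mean of 54.4% ± 4.19 for mammary gland and 65.5% ± 6.61 for liver (SD over 12 libraries of each tissue). ND1 and ND5 each took a larger part in mammary gland in 12 of 12 cows. In corn stover cow 3 the parts of COX1 and ND1 were nearly equal between the tissues. There COX1 took 57.6% in mammary gland and 57.7% in liver, and ND1 5.64% and 5.54%. For ND5 the part was 3.46% ± 0.638 in mammary tissue and 1.67% ± 0.552 in liver, and the lowest mammary value, 2.49%, lay just below the highest liver value, 2.52%. ND1 stood at 6.12% ± 1.81 in mammary gland and 3.27% ± 1.21 in liver. CYTB was larger in mammary gland in 11 of 12 cows (8.16% ± 1.23 in mammary gland and 5.14% ± 1.80 in liver) and ATP6 in 10 (10.4% ± 0.917 and 8.38% ± 1.82). COX2 and COX3 divided less clearly, being larger in mammary gland in 9 and 8 cows. These parts are a description and were not tested. They add up to the whole in each library, so a smaller part of COX1 goes with a larger part of the others.

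**Figure D3:**
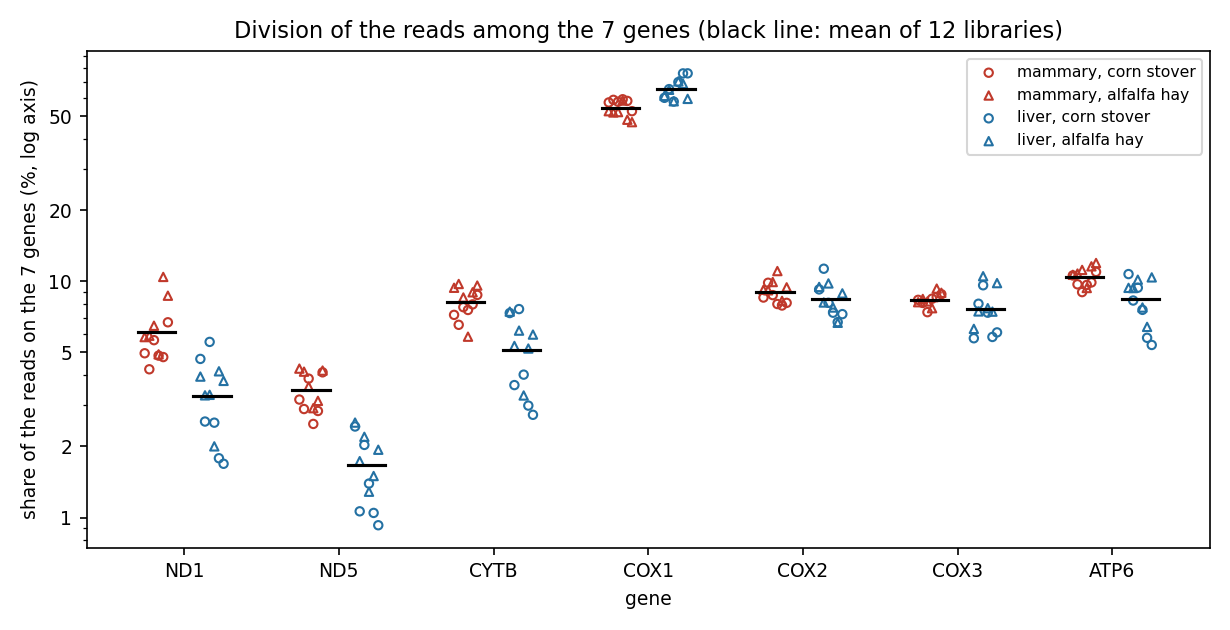
Part of the reads on the 7 genes that fell on each gene, in percent on a log axis, with 1 point per library, mammary gland left of liver, circles for corn stover and triangles for alfalfa hay, and the mean of 12 libraries as a black line. COX1 averages 54.4% in mammary gland and 65.5% in liver, and ND5 3.46% and 1.67%.

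The cows were ordered differently in the mammary gland and in the liver. Corn stover cow 6 had the highest summed share in mammary gland, 5.62%, and ranked 11 of 12 in liver, with 1.96%. Corn stover cow 1 had the lowest share in mammary gland, 2.18%, and ranked 2 in liver, with 6.23%. Alfalfa hay cow 6 was lowest in liver, at 1.79%, and ranked 3 in mammary gland, at 3.59%. Alfalfa hay cow 1 was highest in liver, at 6.98%, and ranked 6 in mammary gland, at 2.89%.

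The diet comparison in mammary gland asked whether corn stover changed these genes in the milk-producing tissue. None of the 7 genes passed the threshold there, in a comparison that called 0% of 12027 genes (edgeR quasi-likelihood test). DESeq2 called 42 genes, or 0.349%, and limma voom 0, none of them among the 7, and 0 of the 7 were below an unadjusted p of 0.05, where 784 of all genes were. Fitted log2 changes ran from -0.31 for ND1 to 0.22 for COX1, with a median of -0.03 over the 7 genes and 0.0014 over all genes tested. COX1 stood at 9043, 16298 and 29211 normalised CPM on corn stover (lowest, median, highest) and at 12524, 14929 and 23278 on alfalfa hay. The corn stover range enclosed the alfalfa hay range. Its log2 change had a 95% interval from -0.38 to 0.83 (edgeR adjusted p = 0.947), and that of ND1 ran from -1.07 to 0.44 (edgeR adjusted p = 0.937). ND1 stood at 784, 1462 and 3730 normalised CPM on corn stover and at 1462, 1761 and 3764 on alfalfa hay. The intervals do not exclude a change in either direction.

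Much of the spread on corn stover came from replicate 6. It held 0.377% of counts on ND1, against 0.100% to 0.177% in the other corn stover mammary libraries. Without this library all fitted changes but that of COX1 were negative, with a median of -0.29 over the 7 genes, and the smallest adjusted p was 0.667 (edgeR). In the division of reads COX1 took 57.2% ± 2.37 of the 7-gene reads on corn stover and 51.7% ± 3.88 on alfalfa hay in mammary gland, and ND1 5.20% ± 0.865 and 7.04% ± 2.10 (SD, n = 6 each). For COX1, 2 of 6 corn stover libraries lay above all alfalfa hay libraries, and for ND1, 3 of 6 lay below, so the diets overlapped.

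In liver the question was the same, and again none of the 7 genes passed the threshold, in a comparison that called 0% of 12929 genes (edgeR quasi-likelihood test). DESeq2 called 3 genes, or 0.0232%, and limma voom 0, none of them among the 7, and 0 of the 7 were below an unadjusted p of 0.05, where 354 of all genes were. All 7 fitted values were lower on corn stover, from -0.20 for ND1 to -0.48 for ND5 on the log2 scale, with a median of -0.34 over the 7 genes and 0.0036 over all genes tested. ND5 stood at 156, 429 and 1945 normalised CPM on corn stover and at 317, 696 and 2517 on alfalfa hay. COX1 stood at 12778, 24967 and 47908 on corn stover and at 9693, 24525 and 60797 on alfalfa hay. The diets overlapped for both genes, and the COX1 medians were close. The 95% interval was -1.76 to 0.80 for ND5 and -1.10 to 0.65 for COX1 (edgeR adjusted p = 0.99998 for both), and neither interval excludes a change in either direction.

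The sign of these liver values rested on single libraries. Without alfalfa hay replicate 1 the fitted value was positive for 6 of the 7 genes, with a median of 0.12. Without corn stover replicate 1 the median was -0.75, and without both of these it was -0.39. The headers of the count columns of alfalfa hay livers 1 to 5 begin with a tissue letter, and those of the other 7 livers do not. With the kind of header as a term, diet rests on alfalfa hay replicate 6 alone, the library with the lowest summed share of all 24, and all 7 values were positive, from 0.77 to 1.40 (edgeR adjusted p = 0.9996). Diet and kind of header cannot be told apart for the other 5 alfalfa hay livers.

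**Figure D4:**
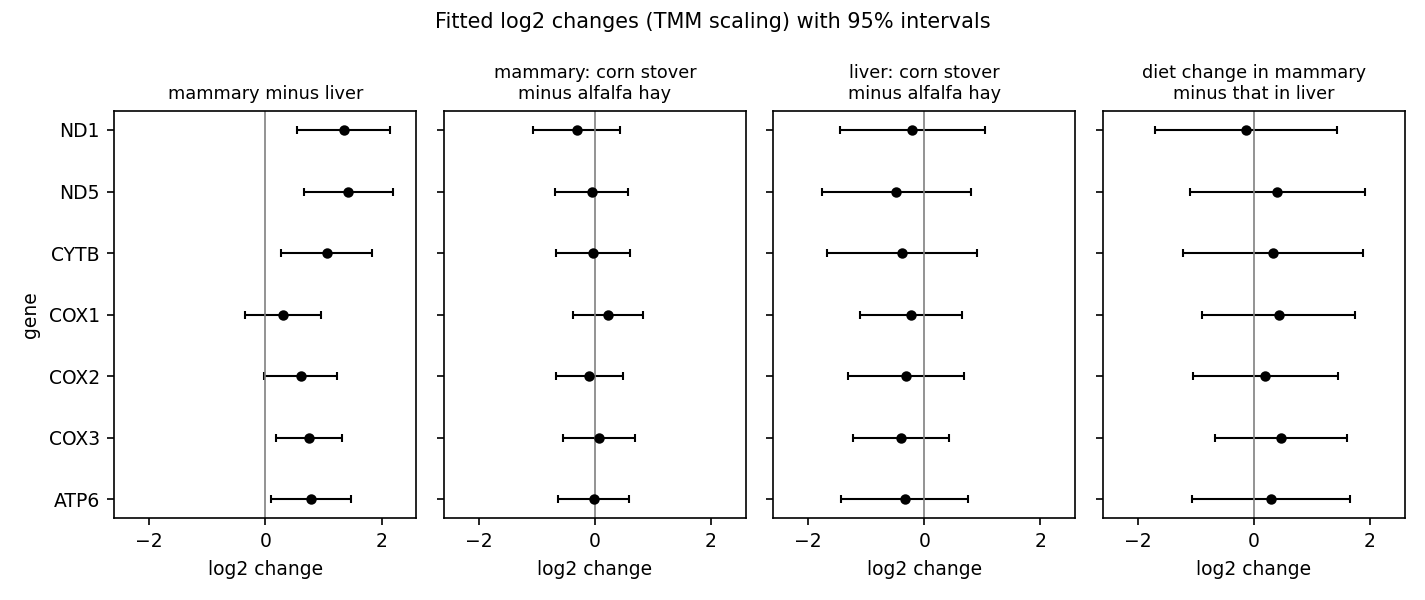
Fitted log2 changes of the 7 genes (points) with 95% intervals (bars), after TMM scaling, for mammary gland minus liver, for corn stover minus alfalfa hay in each tissue, and for the difference between the diet changes. The interval excludes 0 for 5 genes between the tissues and for none in the 3 diet panels.

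The interaction asked whether the diet change differed between the tissues. It called 0% of 13760 genes and none of the 7 (edgeR quasi-likelihood test), with 700 genes and 0 of the 7 below an unadjusted p of 0.05. DESeq2 called 74 genes, or 0.538%, and limma voom 0, none of them among the 7. The fitted difference, mammary gland minus liver, ran from -0.13 for ND1 to 0.47 for COX3 on the log2 scale, and the 95% interval of COX3 ran from -0.67 to 1.60 (edgeR adjusted p = 0.9999). Without alfalfa hay cow 1 the median over the 7 genes was -0.16 and without corn stover cow 6 it was -0.18, against 0.33 over all cows.

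Expression typical of the other tissue was measured on genes whose median level reached 1000 CPM in one tissue and was 1000 times or more that in the other, 11 of mammary type and 60 of liver type. In liver the summed level of the mammary-type genes was 1.45 to 38.9 ppm of their mammary level on corn stover, with 1 to 7 of the 11 genes at 0, and 5.35 to 296 ppm on alfalfa hay, with 0 to 3 at 0. The 5 alfalfa hay livers whose headers begin with a tissue letter stood at 147 to 296 ppm with none of the 11 at 0, while alfalfa hay replicate 6, at 5.35 ppm with 3 at 0, lay within the range of the corn stover livers. In mammary gland the liver-type genes summed to 204 to 1976 ppm of what they reached in liver on corn stover, with none of the 60 at 0, and to 70.8 to 400.05 ppm on alfalfa hay, with 0 to 11 at 0. Their part in the values of the 7 genes was not tested.

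Replicate 1 of liver had been named as standing apart in both diets when the set was chosen. The values below are therefore a description and no separate support. The summed share was 6.23% in the corn stover library and 6.98% in the alfalfa hay library, the highest of the 12 livers, against 1.79% to 6.08% in the other 10. On this scale they were not separate from alfalfa hay replicate 2, which held the 6.08%. The COX1 share of the corn stover library, 3.73%, ranked 3 of 12, below the 3.93% of alfalfa hay replicate 2. In alfalfa hay livers the summed share fell steadily with replicate number, from 6.98% through 6.08%, 4.45%, 3.61% and 3.04% to 1.79%. Corn stover livers showed no steady fall. On each diet replicate 6 was the lowest liver and the highest mammary library. The reason for this order was not tested. The TMM factors of the replicate 1 livers were 0.778 on corn stover and 0.700 on alfalfa hay, against 0.982 to 1.17 in the other livers. A low factor raises every normalised level of a library. After scaling, the summed level was 80083 normalised CPM in the corn stover library and 99759 in the alfalfa hay library, against 16369 to 61926 in the others, so that both lay clear of the rest.

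The genes did not share this equally. ND5 stood at 1945 normalised CPM in the corn stover and 2517 in the alfalfa hay library, 4.46 and 5.78 times the median of the other 10 livers and above their highest value of 1073. CYTB was at 4.61 and 5.82 times that median and ND1 at 4.76 and 4.99 times. COX1 was at 1.97 and 2.49 times the median, with 47908 and 60797 normalised CPM against 9693 to 40062 in the other livers. COX3 was at 1.93 and 2.64 times, and its corn stover value of 4598 lay below the 4618 of alfalfa hay replicate 2. As a share of all reads COX3 ranked 5 of 12 in the corn stover and 4 of 12 in the alfalfa hay library, and ATP6 ranked 1 and 2. In the division of the 7-gene reads, COX3 took its lowest part of all livers in the corn stover library, 5.74%, while ATP6 took its highest part there, 10.7%. ND5 took 2.43% and 2.52% of these reads in the replicate 1 livers, the highest 2 values among livers, against 0.928% to 2.20% in the others. The replicate 1 livers also had the fewest genes with a read, 15022 on corn stover and 14786 on alfalfa hay, against 15361 to 15956 in the other livers. Their 10 most abundant genes outside the set took 32.6% of reads on corn stover and 32.4% on alfalfa hay. In the other livers these took 24.2% to 30.7%. Whether these features bear on the levels of the 7 genes was not tested.

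**Figure D5:**
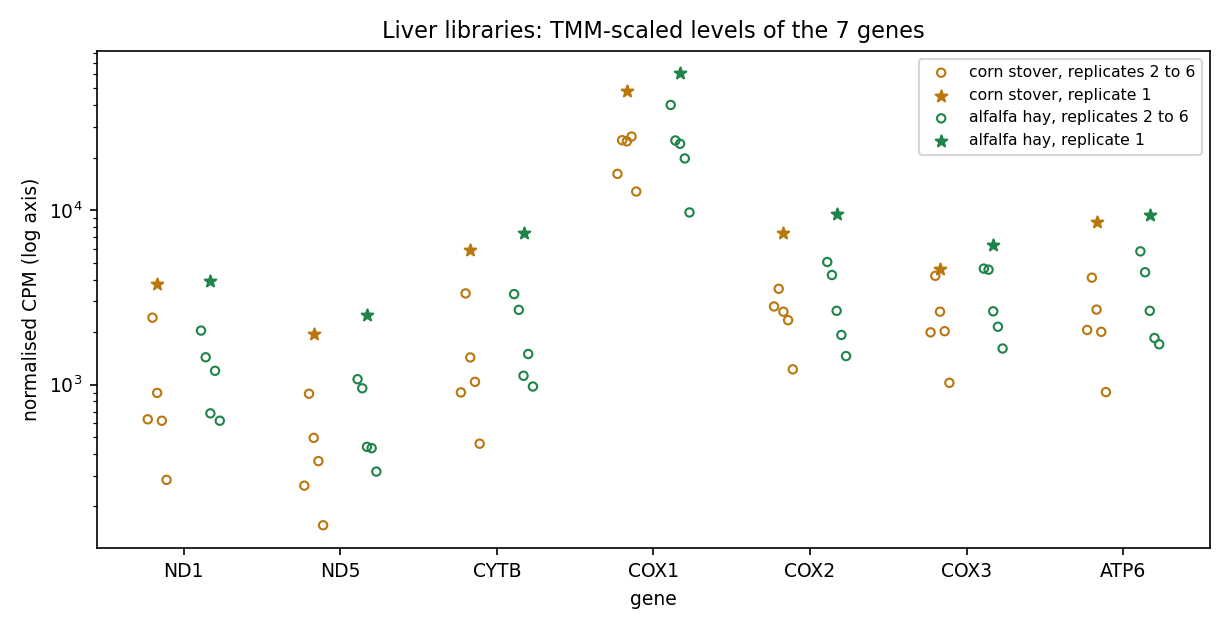
Normalised CPM of the 7 genes in the 12 livers on a log axis, corn stover left of alfalfa hay, with replicate 1 as a star and replicates 2 to 6 as circles. The stars are the highest points for all genes except COX3, where the corn stover star, at 4598, lies just below an alfalfa hay circle at 4618.

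The members of the set followed their sum closely within a tissue, and so did a few other genes. With diet means removed, the Pearson correlation of log2 CPM with the summed 7 genes over 12 libraries was 0.869 for ND1 to 0.976 for COX1 in liver, and 0.876 for ND5 to 0.981 for COX3 in mammary gland. Each gene is part of the sum, so these values describe the set only. Outside it, ENSBTAG00000043582 (r = 0.967, 77.9 CPM) and ENSBTAG00000043577 (r = 0.936, 1974 CPM) were the most alike of 7023 genes at 10 CPM or more in liver. In mammary gland they were ENSBTAG00000043546 (r = 0.933, 339 CPM) and ENSBTAG00000043577 (r = 0.927, 1899 CPM), of 4555 genes. The points share the library total, and these identifiers have no name in the sources used here. Their numbers lie among or next to those of the 7 genes. Whether they too belong to mitochondrial DNA could not be checked, so they are not shown to be unrelated genes.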

How the data were processed

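RNA was measured in 24 bovine libraries, 6 per tissue and diet, as raw read counts per gene deposited by the authors for 24616 Ensembl identifiers. The submitters' processing notes name build UMD3.1, HTSeq 0.6.1, TopHat2 2.0.9 and SAMtools 1.1; the annotation release, the strand setting and any filter were not given in the sources used here. Total RNA came from powdered frozen samples, per the labels.

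Shares are percentages of a library's total count. Tests were edgeR 4.0.16 quasi-likelihood fits in R 4.3.3 over all genes kept by filterByExpr (minimum count 10, total 15), with TMM scaling and Benjamini-Hochberg adjustment at 0.05. Diet was fitted over the 12 libraries of a tissue, tissue and interaction over 24 with 4 group means. The standard error is the change divided by the square root of F, and intervals use the t distribution with the fit's degrees of freedom. Normalised CPM divides counts by library total and TMM factor, within the comparison named. Liver and mammary libraries of a diet and number carried equal cow measurements in 12 of 12 cows, so they were taken as the same cow. The within-cow counts and the cow block use these pairs. The main tissue and interaction fits held no cow term. Deviations of such pairs correlated at -0.14 to 0.23. No libraries held identical counts.

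The 7 genes, the lists and the tests were chosen with earlier results of these data known. All 7 were named in every comparison, and outside the set the 2 identifiers most correlated with its sum in each tissue. All 7 passed every filter. Lists of nuclear-encoded respiratory chain subunits and of mitochondrial expression factors could not be applied, since 0 identifiers matched a symbol, and no sequence is printed because none was given. Fits were also run on simulated data with a small set of changed genes and no cow effect. The outcome is not given here and cannot speak for scaling or pairing in the tissue fits. Alternatives were RLE factors, library totals alone, totals and TMM without the 7 genes, other filters, DESeq2 1.42.0, limma 3.58.1 voom, parity 3 cows, blocks, and each library or cow left out.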

Additional observations from a re-analysis of the deposited data

Results flagged for a closer look

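Of 64 groups of 6 values checked for a library far from the others of its group, 9 held one. Chance would give about 3.2 on average. The groups are not independent, since the same libraries and genes that share their transcription recur. Whether 9 is more than chance gives can therefore not be judged. Mammary corn stover replicate 6 accounts for 5 of the 9. Its shares of all counts were 0.377% for ND1 (0.100% to 0.177% in the other 5), 0.231% for ND5 (0.0679% to 0.107%), 0.492% for CYTB (0.154% to 0.276%) and 0.616% for ATP6 (0.229% to 0.353%), and COX1 took 52.5% of its 7-gene reads (57.2% to 59.0%). In mammary alfalfa hay replicate 4, CYTB took 5.83% of the 7-gene reads, against 8.54% to 9.74% in the other 5. Within-tissue TMM factors stood apart at 1.38 in mammary corn stover replicate 1 (0.823 to 1.03 in the other 5), at 0.778 in liver corn stover replicate 1 (1.02 to 1.17) and at 0.700 in liver alfalfa hay replicate 1 (0.982 to 1.09). No share of the 7 genes was flagged in a liver library.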

How the results depend on the processing

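Limits: 6 cows per group and a several-fold spread between livers bound what diet changes could be seen, not read depth. The same replicate numbers occur on both diets for different animals; in liver the deviations of same-numbered libraries correlated at 0.057 to 0.56 and in mammary gland at -0.24 to 0.28. With the replicate number as a block, 0 genes passed in liver and 12 in mammary gland, none of the 7. In liver all 7 values stayed negative with this block, with a median of -0.42. Their standard errors were smaller, for ND5 0.27 against 0.60 without the block. In the diet and interaction fits no value of the 7 genes passed the threshold under any alternative.

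Of all genes, DESeq2 called 3 in liver, 42 in mammary gland and 74 in the interaction, against 0 each with edgeR, and without single cows the interaction count ran from 0 to 2. Summed shares moved by more than their SD in mammary gland when the 10 most abundant other genes were taken out, to 11.9% on corn stover and 11.6% on alfalfa hay.

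Between the tissues, library totals alone turned COX1 (-0.64, edgeR adjusted p = 0.0220), COX2 (-0.31), COX3 (-0.21) and ATP6 (-0.11), and ND1, ND5 and CYTB no longer passed, so none of the 5 calls held. With no filter ATP6 did not pass (edgeR adjusted p = 0.0541). With 1 cow left out, the 7 genes kept their direction in all 12 fits, and calls numbered 2 to 6. The fit with 2 calls, without corn stover cow 6, called 32.7% of all genes higher, so 2 of 7 is no excess over all genes. Without alfalfa hay cow 5 the share of all genes called higher was 32.3%.

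In liver the header kind as a term turned ND1 (1.21), ND5 (1.11), CYTB (1.16), COX1 (1.40), COX2 (1.19), COX3 (0.77) and ATP6 (0.995). With 1 library left out the ranges of the liver log2 values were -0.75 to 0.27 for ND1, -1.12 to 0.10 for ND5, -0.96 to 0.19 for CYTB, -0.49 to 0.12 for COX1, -0.70 to 0.13 for COX2 and -0.85 to 0.0595 for ATP6.

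In mammary gland the diet value turned for ATP6 with library totals alone (0.0103), for COX3 with voom (-0.026) and with the replicate number as a block (-0.026), for ND5 (0.087), CYTB (0.11) and ATP6 (0.068) in parity 3 cows, and for ND5 (0.10), CYTB (0.11), COX2 (0.0043) and ATP6 (0.072) without both replicate 1 cows. With 1 library left out the ranges were -0.29 to 0.0578 for COX2, -0.29 to 0.12 for ATP6, -0.31 to 0.13 for CYTB, -0.42 to 0.10 for ND5 and -0.17 to 0.23 for COX3.

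In the interaction ND1 turned with voom (0.035), in parity 3 cows (0.44), without both replicate 1 cows (0.051) and with the cow as a replicate block (0.011). With 1 cow left out the ranges were -0.72 to 0.60 for ND1, -0.18 to 1.23 for ND5, -0.24 to 1.097 for CYTB, -0.28 to 0.76 for COX2 and -0.18 to 0.97 for ATP6. The causes of these changes of sign were not tested.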
